A study of Drosophila melanogaster with 40 samples.

Results

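Lipid synthesis genes were examined in whole-fly RNA of Drosophila melanogaster as 6 genes fixed by name, SREBP, FASN1, ACC, Desat1, AcCoAS and mag. Their FlyBase identifiers each matched 1 row of a count table of 17609 genes, and all 6 passed the filter on low counts. The table held 40 libraries of 3' end sequencing, from wild-type flies and from flies whose insulin-producing cells had been ablated, young or old in each genotype. For wild-type flies there were 13 libraries at each age, a 4 h control without heat shock and climbers and non-climbers at 0, 1, 2, 4, 6 and 8 h after heat shock. For ablated flies there were 7 at each age, a 4 h control and climbers at the same 6 hours. Every condition had 1 library, and error was taken from how far libraries lay from a model in which genotype with age, hour, and behaviour add up. Nothing in the labels says how the cells were ablated, which driver was used, how old the flies were in days, their sex, how many were pooled or how the heat shock was given.

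Animals build fatty acids from acetyl-CoA, which AcCoAS makes from acetate. ACC turns acetyl-CoA into malonyl-CoA, the committed step, FASN1 joins these units into saturated fatty acids, and Desat1 places the first double bond. SREBP is a membrane-bound transcription factor that is cut free by proteases and switches on these enzymes, and in flies its cutting responds to phosphatidylethanolamine rather than to sterols. The fat body, the fly's counterpart of liver and fat tissue, and the oenocytes are main sites of this synthesis, and insulin signalling promotes it in many animals. The name lipid synthesis does not cover mag. Its product, Magro, is a lipase that acts in the gut on dietary fat and sterol esters, so it belongs to lipid digestion and uptake rather than to synthesis.

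All 6 genes are protein-coding, and positions are given in dm6 coordinates. SREBP (FBgn0261283) lies on chromosome 3L at 19793935 to 19798979, on the plus strand, and its 3' end meets that of CG14102 on the minus strand, which had 4290 counts in all libraries against 119837 for SREBP. FASN1 (FBgn0283427) lies on 2L at 3056598 to 3068177, and Desat1 (FBgn0086687) on 3R at 12439600 to 12447616, both on the plus strand and without an overlapping gene. AcCoAS (FBgn0012034) lies on 3L at 21270722 to 21280243 on the minus strand, again without an overlap. ACC (FBgn0033246) lies on 2R at 7974115 to 7991862 on the minus strand, and Nup44A overlaps it on the plus strand away from its 3' end. The gene mag (FBgn0036996) lies on 3L at 20460683 to 20462274 on the plus strand, within the span of atk on the minus strand, which had 1431 counts against 43791 for mag. Whether counting used strand is not given in the sources used here, so reads of such pairs cannot be told apart. Counts per library were at least 856 for each of the 5 other genes and 19 to 5100 for mag.

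Library totals ran from 11714961 to 48747409 counts. Ilp2, a peptide gene of the ablated cells, had 5 to 40 counts in each wild-type library whereas the 14 ablated ones summed to 7. Ilp3 summed to 47 counts in ablated libraries, 20 of them in 1 library. That lies within the wild-type range of 1 to 21, so Ilp3 does not set this library apart from wild type. Ilp5 summed to 17 counts, at most 9 in a library, which also lies within the wild-type range of 3 to 46. The listed inducible heat shock transcripts summed to 4799 CPM in the library labelled ablated young control and to 3154 CPM in that labelled ablated young 6 h. In the 3 other series of climbers the 6 h library was the higher one, at 6446 to 7244 CPM against 2935 to 4265 CPM in the controls. The order of this pair is thus the reverse of that in the other series, which leaves both labels in doubt, and member calls that change without them are given beside the result. The first principal component of 865 noncoding transcripts set 12 ablated libraries apart from the rest. Those of ablated young flies at 0 h and 1 h lay on the side of wild type. These sides are the library sets used below. In old flies the set and the genotype are the same split. A library set covariate therefore rests on ablated young flies alone, where set also follows the hour. It cannot separate set from genotype in old flies. The 5 batches named in the labels followed genotype, age and hour. No batch held both genotypes at the same age, so genotype and batch cannot be told apart within a batch. Fat body and oenocyte markers were present in every group, with no list member at 0 in any group, and male gland and testis markers summed to at most 1.84 CPM in 39 libraries and to 56.4 CPM in wild-type young non-climbers at 6 h.

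SREBP and mag each passed in all 4 comparisons of genotype and of age, and ACC, AcCoAS and FASN1 in 1 or 2 comparisons of genotype. Between 8 h and 0 h 3 of the 6 genes passed, all higher at 8 h, against a share of 10.5% of 11449 genes called, 6.46% higher and 4.03% lower. The same 3 passed a test for any difference among hours, against 8.71%. Between old and young flies, 2 of 6 passed in wild type, against 23.5% of all genes (11.8% higher, 11.7% lower), and 2 of 6 in ablated flies, against 37% (15.7% higher, 21.3% lower). Between ablated and wild-type flies, 3 of 6 passed in young flies, all higher, against 33% of all genes called, 18.2% higher and 14.8% lower. In old flies 5 of 6 passed, all higher, against 56.9% called, 29.9% higher and 27% lower. The age effect differed between genotypes for 2 of 6, both positive, against 36.4% (15.5% higher, 20.8% lower). For age, the counts of 2 in 6 are close to the shares of the whole table. A call is an adjusted p below 0.05 by edgeR's quasi-likelihood test, and the values that follow are fitted log2 fold changes with standard errors, or levels in CPM, counts scaled to library size.

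**Figure D1:**
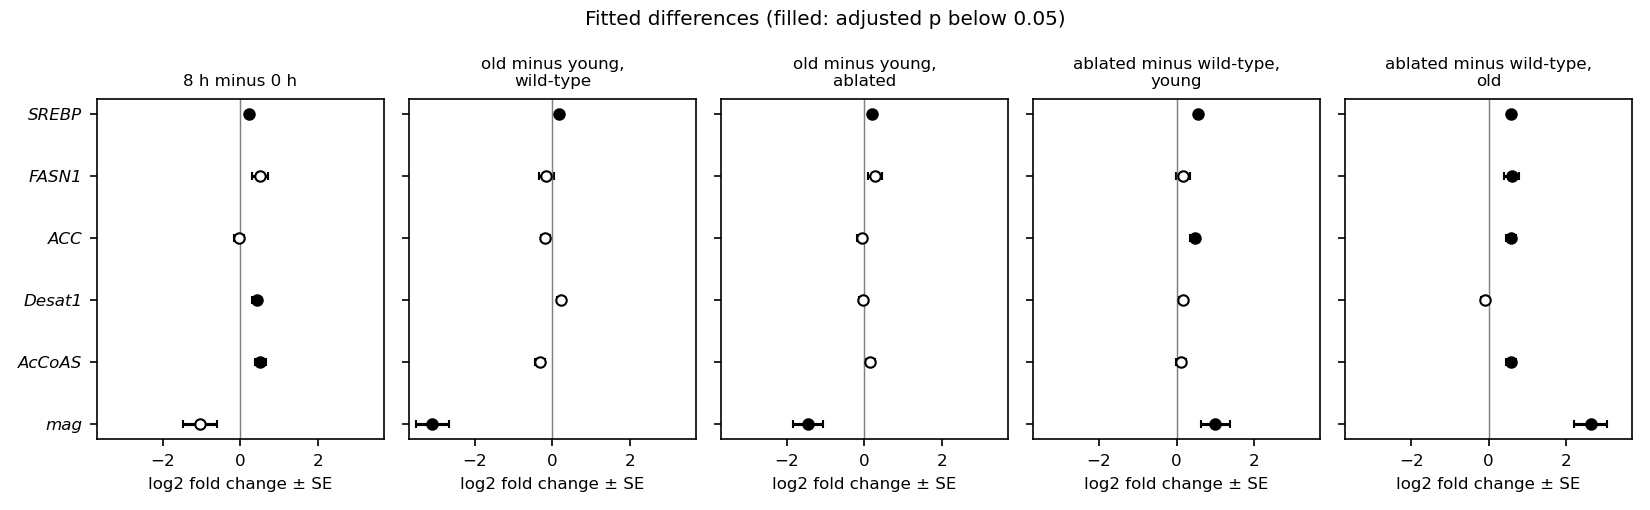
Fitted log2 fold change of each gene in 5 comparisons, with standard errors, from the additive model over 40 libraries. Filled points passed an adjusted p of 0.05. The gene mag has the widest values, from -3.10 with age in wild type to 2.64 with ablation in old flies, and SREBP the narrowest errors.

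SREBP, the transcription factor, was higher in ablated flies at both ages. Its level was 82.1 to 126 CPM in wild-type young flies (median 114), 99.7 to 143 in wild-type old flies (median 124), 130 to 187 in ablated young flies (median 163) and 158 to 198 in ablated old flies (median 184). In each age the ablated and wild-type libraries did not overlap, whereas young and old libraries of the same genotype did. How many of all genes show no overlap was not counted, here or for ACC and mag below. The difference was 0.56 ± 0.06 in young flies (edgeR adjusted p = 4.51e-08) and 0.57 ± 0.06 in old flies (edgeR adjusted p = 3.73e-09), a fold of 1.47 and 1.48. SREBP was higher in 7 of 7 matched libraries of the same hour at each age.

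That difference was close to equal at both ages, with a genotype by age term of 0.01 ± 0.09 (95% interval -0.18 to 0.19). It was 0.58 in young and 0.58 in old flies with the library set as a covariate, which kept the call. The set term in the old value comes from ablated young flies, since set and genotype coincide in old flies. The difference included the ablated young libraries of the first set. There SREBP stood at 163 CPM at 0 h and 130 at 1 h, against 96.4 and 102 in wild-type climbers. With batch as a covariate it was 0.50 (edgeR adjusted p = 0.145) in young flies and 0.81 (edgeR adjusted p = 0.0601) in old flies, and neither passed.

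SREBP also moved with the hour. Its median over 6 series was 104 CPM at 0 h and 110 at 1 h, reached 138 at 2 h, stayed at 129 for both 4 h and 6 h, and ended with 122 at 8 h. The levels at 0 h and 8 h overlapped, with 1 of the 6 libraries of 8 h above all of 0 h. The change from 0 h to 8 h was 0.23 ± 0.07 (edgeR adjusted p = 0.0238), and SREBP was higher in 5 of 6 series. It was lower only in ablated young flies, by -0.12. By 4 h it was already higher in 6 of 6 series, by a median of 0.22 in log2 CPM. Batch as a covariate gave 0.22 (edgeR adjusted p = 0.293) and climber libraries with controls gave 0.15 (edgeR adjusted p = 0.292), so the call from 0 h to 8 h was lost in both.

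Age had a small effect on SREBP. It was higher in old flies by 0.18 ± 0.06 in wild type (edgeR adjusted p = 0.0426) and by 0.18 ± 0.06 in ablated flies (edgeR adjusted p = 0.0223). Old wild-type libraries were higher in 12 of 13 matched pairs and old ablated ones in 5 of 7. In wild-type flies the call was kept in 12 of 22 alternatives, and batch as a covariate gave 0.05 (edgeR adjusted p = 0.995). Within the batch that held wild-type flies of both ages, 3 old libraries of 0 and 1 h stood at 99.7 to 107 CPM, below 5 young libraries at 110 to 126, which were controls or of 6 and 8 h. In ablated flies the call was kept in 12 of 20 alternatives and was lost with RLE factors, at 0.14.

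**Figure D2:**
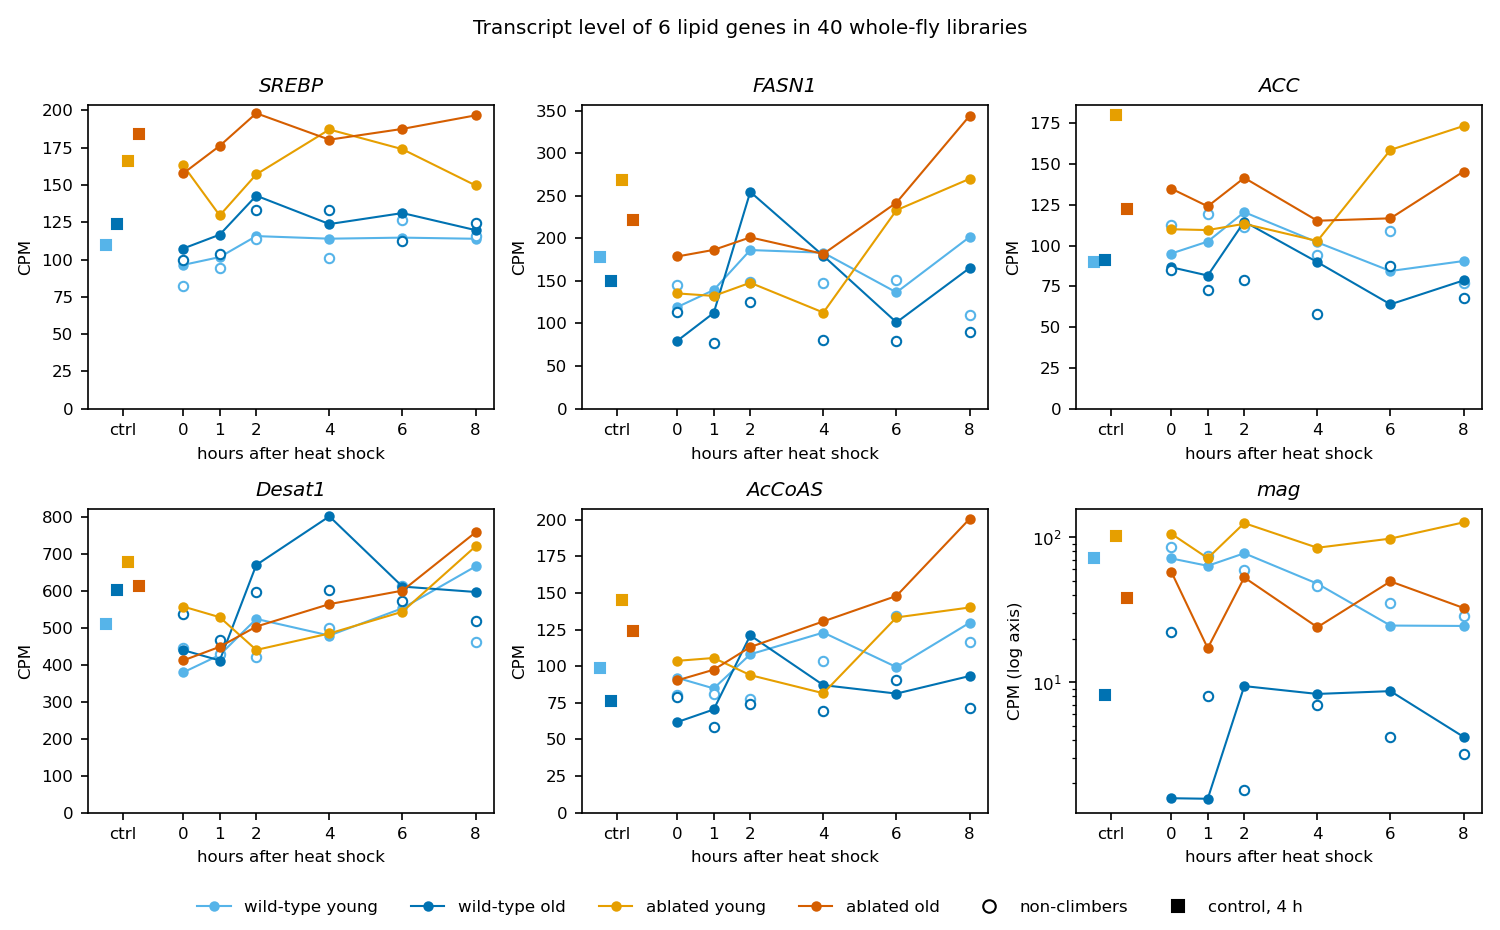
Level of each gene in CPM in every library, by hour after heat shock. Lines join climbers, open circles are non-climbers (wild type only), squares are the 4 h controls, and the axis of mag is logarithmic. For SREBP the ablated points (orange shades) lie above the wild-type points (blue shades) of the same age, while for mag the 13 old wild-type libraries lie between 1.56 and 22.1 CPM, below all others but the lowest of ablated old flies.

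AcCoAS, the acetyl-CoA synthetase, rose with the hour and was higher in ablated old flies. Its level was 77.3 to 134 CPM in wild-type young (median 99.4), 58.6 to 121 in wild-type old (median 76.1), 81.5 to 145 in ablated young (median 106) and 90.3 to 201 in ablated old flies (median 124). All 4 ranges overlapped. From 0 h to 8 h it rose by 0.51 ± 0.14 (edgeR adjusted p = 0.0111), in 5 of 6 series.

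The lowest AcCoAS level of ablated old flies was at 0 h and the highest at 8 h. Within the single batch that held these 6 libraries, from 0 to 8 h, the slope was 0.33 ± 0.06 per unit of log2(hour + 1). In 1 batch each it was 0.16 ± 0.09 in wild-type young (0 to 4 h) and 0.03 ± 0.13 in ablated young flies (0 to 6 h). The 7 wild-type old libraries of 1 batch (1 to 6 h) gave 0.03 ± 0.18. The wild-type libraries include non-climbers and the hours differ, so these slopes are not like for like. The slopes of ablated and wild-type climbers were not shown to differ, with a difference of 0.09 ± 0.08 (edgeR adjusted p = 0.592). With wild-type libraries alone the 8 h change was 0.38 and did not pass (edgeR adjusted p = 0.134), while with batch as a covariate it was 0.77 and passed (edgeR adjusted p = 0.0332).

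Ablated old flies had more AcCoAS than wild-type old flies by 0.59 ± 0.13 (edgeR adjusted p = 0.000179), and in 6 of 7 matched libraries. In young flies the difference was 0.12 ± 0.13 and did not pass (95% interval -0.13 to 0.38). The difference between these differences passed, at 0.46 ± 0.18 (edgeR adjusted p = 0.0407), but in only 6 of 20 alternatives. With the library set as a covariate the effect in old flies was 0.76 (edgeR adjusted p = 0.0876), and with batch 1.24 (edgeR adjusted p = 0.137). In wild-type flies AcCoAS was lower with age in 12 of 13 pairs, by -0.32 ± 0.13, without passing (edgeR adjusted p = 0.0678), and it passed in wild-type libraries alone, at -0.34 (edgeR adjusted p = 0.0338). Within the batch of both ages, 3 old wild-type libraries had 58.6 to 79.2 CPM and 5 young ones 98.5 to 134, but the old ones were of 0 and 1 h and the young ones controls or of 6 and 8 h, so age and hour cannot be told apart there.

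ACC, the acetyl-CoA carboxylase, stood higher in ablated flies and did not pass for the hour. Its level was 77.1 to 120 CPM in wild-type young (median 102), 58.1 to 115 in wild-type old (median 81.6), 103 to 180 in ablated young (median 113) and 115 to 145 in ablated old flies (median 124). Old ablated and old wild-type libraries did not overlap, while those of young flies did. The difference was 0.57 ± 0.12 in old flies (edgeR adjusted p = 0.000163), higher in 7 of 7 pairs, and 0.47 ± 0.12 in young flies (edgeR adjusted p = 0.00353), higher in 6 of 7.

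In young ablated flies the ACC level fell into low and high libraries. It stood at 103 to 113 CPM in the 4 libraries from 0 h to 4 h, and at 159, 173 and 180 CPM at 6 h, at 8 h and in the labelled control. Wild-type young climbers stood between 95.1 and 120 CPM over those hours, and the matched differences over these hours ran from -0.09 to 0.21 in log2 CPM. With the pair of doubtful ablated young libraries left out, the difference was 0.30 and did not pass (edgeR adjusted p = 0.0798). With the library set as a covariate it was 0.10 in young flies (edgeR adjusted p = 0.759) and 0.06 in old flies (edgeR adjusted p = 0.951), and with batch it was 0.94 (edgeR adjusted p = 0.116) and 0.37 (edgeR adjusted p = 0.700). None of these 4 passed. From 0 h to 8 h ACC changed by -0.04 ± 0.13 (95% interval -0.31 to 0.24), and with age by -0.18 ± 0.12 in wild type and -0.07 ± 0.12 in ablated flies, none of which passed.

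FASN1, the fatty acid synthase, was higher in ablated old flies than in wild-type old flies and spread widely among libraries. Its level was 110 to 202 CPM in wild-type young (median 148), 77.6 to 255 in wild-type old (median 112), 113 to 270 in ablated young (median 148) and 179 to 344 in ablated old flies (median 201). In old flies 11 of 13 wild-type libraries lay below all 7 ablated ones, and the highest wild-type library was that of 2 h climbers. The difference was 0.60 ± 0.19 (edgeR adjusted p = 0.00785), higher in 6 of 7 pairs, and it was lost with the library set, at 0.27 (edgeR adjusted p = 0.822), or batch, at 0.69 (edgeR adjusted p = 0.680), as a covariate. In young flies it was 0.17 ± 0.19 and did not pass, and it was -0.07 without the pair of doubtful ablated young libraries, again without passing. The age difference in ablated flies was 0.27 ± 0.19 and did not pass (edgeR adjusted p = 0.263), but without that pair it was 0.51 and passed (edgeR adjusted p = 0.0446). The genotype by age term likewise went from 0.43 ± 0.27 (edgeR adjusted p = 0.209) to 0.67, which passed (edgeR adjusted p = 0.0468).

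Ablated young FASN1 levels followed those of ACC, at 135, 132, 148 and 113 CPM at 0, 1, 2 and 4 h and 233, 270 and 268 CPM at 6 h, at 8 h and in the labelled control. From 0 h to 8 h the fitted change was 0.51 ± 0.21 and did not pass (edgeR adjusted p = 0.114), with 4 of 6 series higher. The 2 series that were not higher were the non-climbers of each age. In climbers and controls alone the change was 0.93 and passed (edgeR adjusted p = 0.0220). Non-climbers had less FASN1 than climbers in 9 of 12 pairs, with a fitted difference of -0.37 ± 0.14. It did not pass (edgeR adjusted p = 1), though its unadjusted edgeR p of 0.0137 was the only one under 0.05 among the members. No gene of the table passed for behaviour in edgeR, a share of 0%, where 429 had an unadjusted p under 0.05, and DESeq2 called 3 genes and limma-voom 0.

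Desat1, the first desaturase, rose with the hour and did not pass for age or genotype. Its level was 379 to 665 CPM in wild-type young (median 479), 411 to 801 in wild-type old (median 595), 440 to 720 in ablated young (median 543) and 411 to 757 in ablated old flies (median 563), and the 4 ranges overlapped. Its median over 6 libraries was 442 CPM at 0 h and 439 at 1 h, then 513, 531, 585 and finally 631 CPM over the 4 later hours. At 8 h 4 of 6 libraries were above all those of 0 h. The change was 0.43 ± 0.12 (edgeR adjusted p = 0.0130), in 5 of 6 series.

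Within batches the Desat1 slope per unit of log2(hour + 1) was 0.25 ± 0.04 in ablated old flies (0 to 8 h) and 0.11 ± 0.05 in wild-type young (0 to 4 h). It was 0.21 ± 0.16 in wild-type old (1 to 6 h) and -0.04 ± 0.07 in ablated young flies (0 to 6 h), so the spans differ. With batch as a covariate the 8 h change was 0.50 (edgeR adjusted p = 0.116), and in wild-type libraries alone 0.33 (edgeR adjusted p = 0.0962). The genotype difference was 0.17 ± 0.11 in young and -0.09 ± 0.11 in old flies (95% interval -0.31 to 0.13), and the age difference was 0.22 ± 0.11 in wild-type and -0.04 ± 0.11 in ablated flies. In the contrasts with controls no member passed. These called 3.87% of all genes at 0 h (1.73% higher, 2.14% lower), 0.769% at 4 h (0.62% higher, 0.148% lower) and 0.707% at 8 h (0.323% higher, 0.384% lower), and the lowest adjusted p among the members was 0.122, for Desat1 at 0 h (-0.35 ± 0.13, edgeR). At 0 h SREBP stood at -0.21 ± 0.08 and AcCoAS at -0.26 ± 0.15 against control. At 8 h the difference from control was 0.07 ± 0.13 for Desat1, 0.02 ± 0.08 for SREBP and 0.25 ± 0.16 for AcCoAS. Their rise is thus one from 0 h, and none was shown to stand above control at 8 h. Eggshell and ovary markers fell from 0 h to 8 h, with 8 of 13 lower, against 4.03% of all genes. Among them was Vm32E (-5.26 ± 0.83), and the part of these markers in the members' rise was not tested.

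The gut lipase gene mag moved furthest. Its level was 24.4 to 85.2 CPM in wild-type young (median 59.6), 1.56 to 22.1 in wild-type old (median 6.98), 71.8 to 127 in ablated young (median 102) and 17.2 to 58.1 in ablated old flies (median 37.9). Old and young libraries did not overlap in either genotype. In old wild-type flies the level ranged 14.1-fold, with 1.58 CPM in climbers and 22.1 CPM in non-climbers at 0 h. The lowest, climbers at 1 h, rested on 19 counts. In young wild-type flies it stood at 71.5 and 85.2 CPM at 0 h and at 24.4 and 28.8 CPM at 8 h, with the 4 h control at 71.8.

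With age, mag fell by 3.10 ± 0.43 in wild type (edgeR adjusted p = 4.83e-06), lower in 13 of 13 pairs, and by 1.46 ± 0.38 in ablated flies (edgeR adjusted p = 0.00363), lower in 7 of 7. Within the batch of both ages, 3 old wild-type libraries had 1.58 to 22.1 CPM and 5 young ones 24.4 to 71.8, with the same difference in hours. The ablated young 8 h library had 127 CPM and the 7 ablated old libraries of its batch 17.2 to 58.1. With batch as a covariate the age effects were -1.92 (edgeR adjusted p = 0.481) in wild type and -2.11 (edgeR adjusted p = 0.107) in ablated flies, and neither passed.

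With ablation, mag was higher by 2.64 ± 0.42 in old flies (edgeR adjusted p = 4.95e-06), a fold of 6.23, and by 1.01 ± 0.38 in young flies (edgeR adjusted p = 0.0435), in 7 of 7 pairs at each age. In young flies the call was kept in 10 of 20 alternatives. The value was 1.05 without the pair of doubtful libraries (edgeR adjusted p = 0.0810), 2.45 with batch (edgeR adjusted p = 0.258) and 0.45 with the library set as a covariate (edgeR adjusted p = 0.647), and none of these passed. In old flies the value was 1.87 with the library set (edgeR adjusted p = 0.194) and 2.26 with batch (edgeR adjusted p = 0.420). Of the 7 ablated old libraries, 6 lay above all wild-type old ones. The age effect was smaller in ablated flies, with a genotype by age term of 1.63 ± 0.56 (edgeR adjusted p = 0.0229), which turned to -0.19 with batch as a covariate and was lost without the 0 h libraries (1.32), without the 1 h libraries (1.45) or with the library set as a covariate (1.42). From 0 h to 8 h mag changed by -1.04 ± 0.43 without passing (edgeR adjusted p = 0.127), with 4 of 6 series lower.

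Midgut markers were also read in the genotype comparison. They summed to 796 to 1682 CPM in wild-type young, 519 to 1040 in wild-type old, 1870 to 4758 in ablated young and 1567 to 2899 in ablated old flies, with gammaTry at 0 in every library. Of the 9 tested, 6 passed between ablated and wild-type old flies, near the 56.9% of all genes. There 5 were higher and 1 lower (median 1.25, against 0.08 over all genes), among them the trypsins betaTry (1.99 ± 0.23) and alphaTry (1.50 ± 0.20). In young flies 5 of 9 were higher with ablation and none lower (median 1.13, against 0.04 over all genes). Of all genes, 18.2% were higher and 14.8% lower there. Among muscle markers, 7 of 9 were higher in ablated young than in wild-type young flies, against 18.2% of all genes, and 9 of 9 lower in ablated old than in ablated young flies, against 21.3%. With age in wild type 2 midgut markers were higher and 3 lower, against 11.8% and 11.7% of all genes. Of these betaTry stood at -1.60 ± 0.23 and mex1 at 0.73 ± 0.18. In whole flies, fewer cells of a type and less RNA per cell cannot be told apart, and the part of gut tissue in the mag values was not tested.

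**Figure D3:**
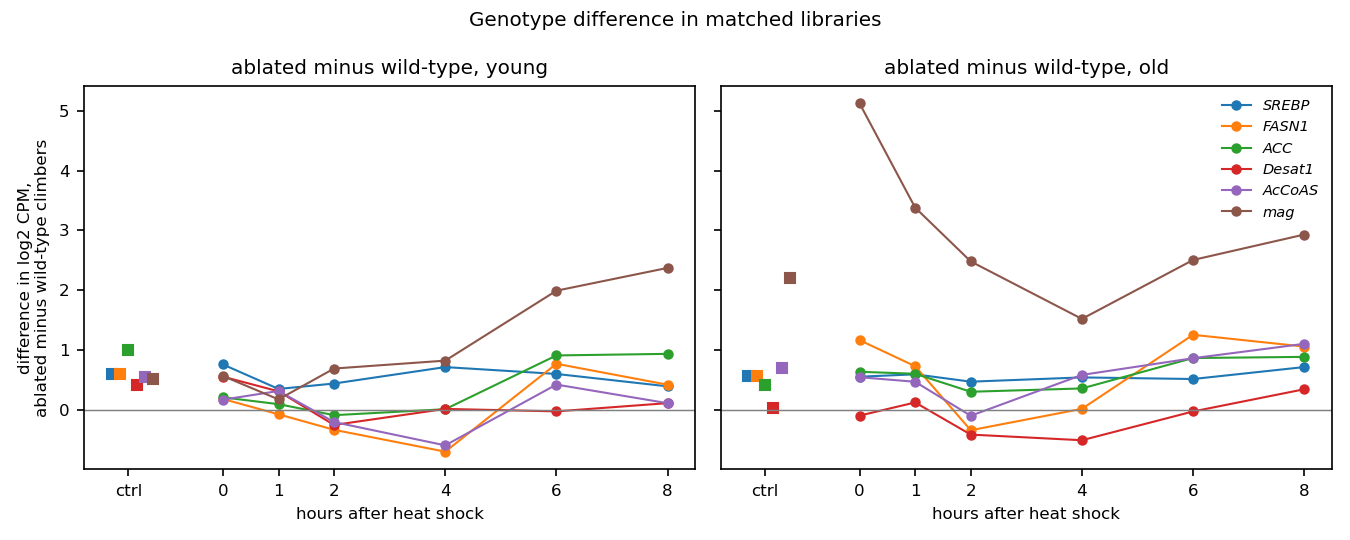
Difference in log2 CPM between ablated and wild-type climbers of the same hour, by gene, in young (left) and old flies (right), with 1 library on each side. Squares are the 4 h controls. SREBP stays between 0.35 and 0.76 in all 14 differences, while ACC in young flies goes from near 0 at 2 and 4 h to 0.94 at 8 h and mag in old flies starts at 5.12.

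The rest of the synthesis pathway was read from a list of 17 genes for fatty acid synthesis and desaturation, which includes ACC, FASN1, AcCoAS and Desat1. With ablation it had 9 of 17 higher and 1 lower in young flies (median 0.47, against 0.04 over all genes). Of all genes, 18.2% were higher and 14.8% lower there. Old flies had 10 higher and 1 lower (median 0.42 against 0.08), against 29.9% and 27% of all genes. In old flies Idh (0.58 ± 0.09) and ATPCL (0.50 ± 0.11), which supply NADPH and cytosolic acetyl-CoA, and Acsl (0.47 ± 0.08), which activates long-chain fatty acids, rose together with ACC, FASN1 and AcCoAS. In young flies the higher genes included the predicted desaturase genes CG9743 (0.86 ± 0.14) and CG15531 (0.97 ± 0.17) and FASN2 (0.95 ± 0.16), another fatty acid synthase. With age, 3 of 17 were higher and 4 lower in wild type, against 11.8% and 11.7% of all genes. Ablated flies had 2 higher and 4 lower, near the 15.7% and 21.3% of all genes. In the genotype by age term 3 of 17 were higher and 3 lower, near the 15.5% and 20.8% of all genes. FASN3 at -1.98 ± 0.39 and FASN2 at -1.06 ± 0.22 were on the lower side and AcCoAS on the higher.

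**Figure D4:**
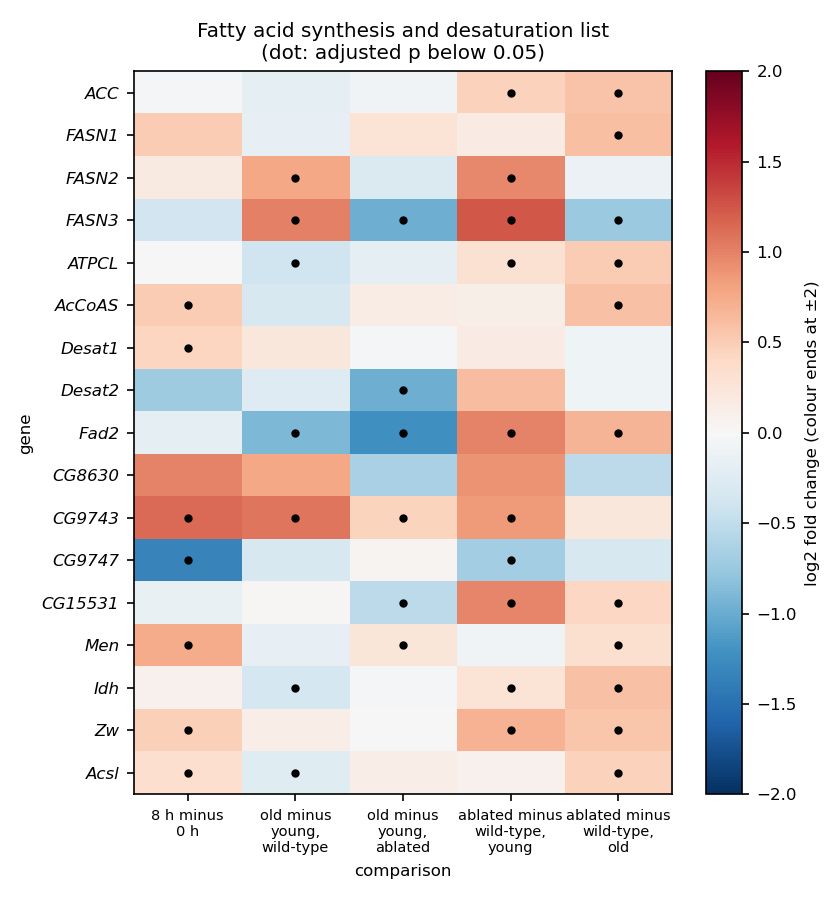
Fitted log2 fold change of the 17 genes of the fatty acid synthesis and desaturation list (rows) in 5 comparisons (columns), with a dot where adjusted p was below 0.05. In the old ablated column 10 genes are red with a dot and 1, FASN3, is blue with a dot.

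The oenocyte markers share FASN2, FASN3 and desatF with the synthesis list, and eloF, CG17821, CG18609 and CG16904 with a fatty acid elongation list. Their values are thus not separate from those lists. Oenocyte markers differed in young flies, where 7 of 9 were higher in ablated flies and 1 lower (median 1.00). Of all genes, 18.2% were higher and 14.8% lower. The higher markers included the elongase genes CG18609 (1.14 ± 0.14) and CG16904 (2.54 ± 0.32). In old flies 3 were higher and 2 lower, close to the 56.9% of all genes called, with a median of -0.06. Their summed level was 970 to 1534 CPM in wild-type young, 1198 to 1581 in wild-type old, 1414 to 3579 in ablated young and 1243 to 1852 in ablated old flies. Fat body markers summed to 1753 to 2458, 1691 to 2854, 839 to 2435 and 1201 to 1551 CPM in the same order. In ablated old flies 3 of 10 were higher and 2 lower, near the 29.9% and 27% of all genes. Their median was 0.09, against 0.08 over all genes. The lipoprotein gene apolpp was among the lower ones (-1.10 ± 0.18). The part of these tissues in the members' values was not tested.

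From 0 h to 8 h, 6 of the 17 synthesis genes were higher and 1 lower, with a median of 0.18 against -0.06 over all genes. The NADPH-producing malic enzyme Men rose by 0.74 ± 0.10, the desaturase-like gene CG9743 by 1.13 ± 0.15, and CG9747 fell by 1.33 ± 0.24. Of all genes, 6.46% were called higher and 4.03% lower, the shares for this list and those that follow. Fatty acid elongation had 3 of 19 higher (median -0.03, against -0.06 over all genes), with Elovl7 (0.83 ± 0.13) and CG5326 (0.86 ± 0.16), and glycerolipid assembly 1 of 18, mino (0.28 ± 0.09), an acyltransferase of triglyceride synthesis. The sterol uptake list had 3 of 12 higher, with Npc2b (1.50 ± 0.18), and the droplet and lipoprotein list 1 of 8, Lsd-1 (1.60 ± 0.28).

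The list of SREBP and its processing genes had 3 of 5 higher, SREBP among them, and 1 lower in ablated old flies. Of all genes, 29.9% were higher and 27% lower in that comparison. SCAP, the escort protein that carries SREBP to its proteases, was the lower one (-1.30 ± 0.22), and S1P, the first protease, was lower in ablated young flies (-0.31 ± 0.11). Drice, a caspase that can cut fly SREBP, was higher in ablated old flies (0.50 ± 0.08). Among 12 regulators of lipid and sugar metabolism, 8 were called in ablated old flies, against 56.9% of all genes, with 2 higher and 6 lower. The lower ones included Sik3 (-1.39 ± 0.11), Mef2 (-0.89 ± 0.08) and foxo (-1.97 ± 0.20), the insulin-restrained transcription factor. The sugar-responsive factor sug rose from 0 h to 8 h by 1.19 ± 0.21.

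Lists of lipid breakdown, digestion and assembly were read in ablated against wild-type old flies, where 29.9% of all genes were higher and 27% lower. Fatty acid oxidation had 15 of 18 higher and none lower (median 0.46), with Acat1 (0.81 ± 0.08), Echs1 (0.70 ± 0.08) and yip2 (0.46 ± 0.05). In old against young wild-type flies 2 of that list were higher and 9 lower, against 11.8% and 11.7% of all genes. Digestive and neutral lipases had 9 of 15 higher and 1 lower (median 1.20), among them CG6277 (1.89 ± 0.20), CG8093 (1.71 ± 0.26) and mag itself. Glycerolipid assembly had 11 of 18 higher and 2 lower (median 0.28), with Gpat4 (0.47 ± 0.08) and Agpat3 (0.46 ± 0.08) higher and Agpat1 (-1.14 ± 0.13) lower. Elongation, with 6 of 19 higher and 5 lower, stood near those shares in old flies. In young flies ablation had 13 of 19 elongation genes higher and none lower (median 0.42), against 18.2% and 14.8% of all genes. Old against young ablated flies had 9 of 19 lower and none higher, against 21.3% and 15.7% of all genes. With ablation in old flies, sterol uptake had 5 of 12 higher and 4 lower. The lipoprotein receptors LpR2 (-1.29 ± 0.15) and LpR1 (-1.35 ± 0.15) were lower.

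The members did not move as 1 group across libraries. After the mean of each genotype and age was removed from log2 CPM, 6 of 15 pairs correlated over 40 libraries at an adjusted permutation p below 0.05. Desat1 and AcCoAS had Pearson r = 0.79 and Spearman rho = 0.80, and FASN1 and AcCoAS r = 0.72 and rho = 0.67. FASN1 and ACC had r = 0.67 and rho = 0.62, and FASN1 and Desat1 r = 0.66 and rho = 0.65. The adjusted permutation p was at most 7.50e-05 for these 4 values of r and at most 0.000150 for rho, from 100000 resamples, whose smallest unadjusted p is 1e-05. Without the 2 libraries farthest from the median of the first gene, r was 0.83, 0.62, 0.59 and 0.63. SREBP correlated with Desat1 (r = 0.46, rho = 0.47, without 2 libraries 0.48) and AcCoAS (r = 0.44, rho = 0.38, without 2 libraries 0.42), with adjusted permutation p of 0.00894 and 0.0105 for r and 0.00759 and 0.0383 for rho. It did not pass with FASN1 (r = 0.33, adjusted permutation p = 0.0749) or ACC (r = -0.06), and mag passed with none.

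When hour and behaviour were removed as well, the 4 enzymes correlated in all 6 of their pairs by Pearson's r, from 0.40 to 0.75, and SREBP passed with none of them, with r from -0.17 to 0.05. On this scale mag passed with FASN1 (r = 0.37, adjusted permutation p = 0.0379, and rho = 0.37, adjusted permutation p = 0.0456; r without 2 libraries 0.33). The weakest enzyme pair, ACC and Desat1, passed for r (adjusted permutation p = 0.0264) and not for rho (0.35, adjusted permutation p = 0.0582). The libraries share their depth scaling and their batches, and batch was not removed.

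**Figure D5:**
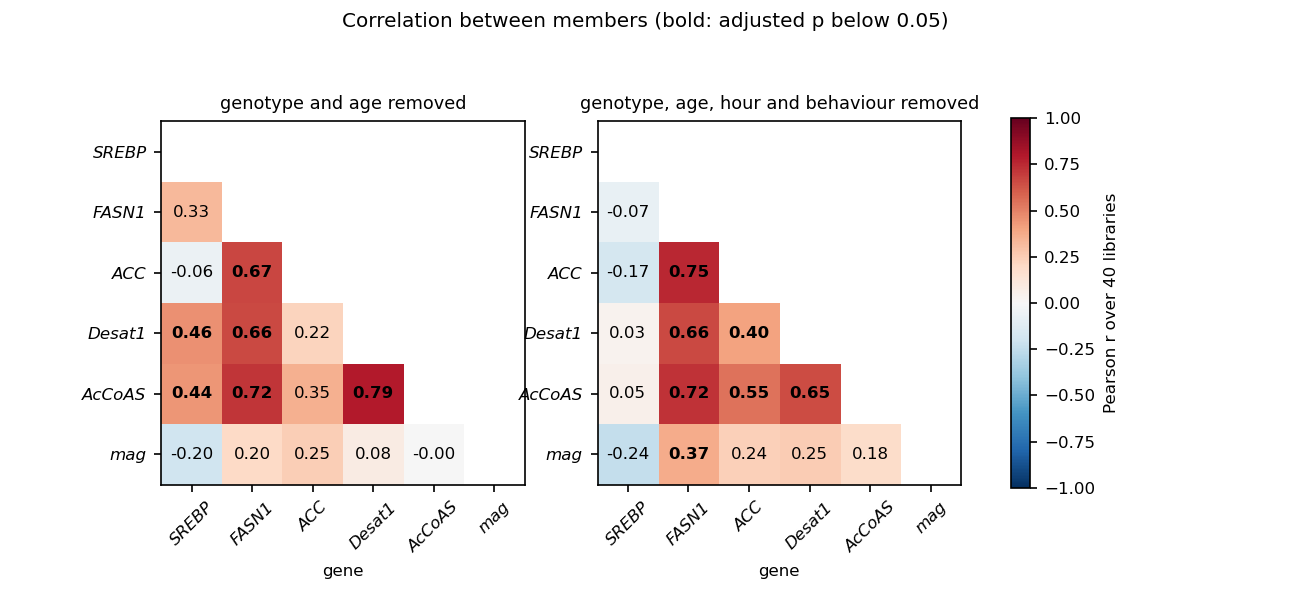
Pearson correlation between the 6 genes over 40 libraries, after removal of genotype and age means (left) and of all terms of the additive model (right), with bold numbers where the adjusted permutation p was below 0.05. On the right p is too small, since residuals of a fit are not free values. The square of the 4 enzymes keeps values from 0.40 to 0.75 on the right, while the SREBP column lies near or below 0.

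The genes whose log2 CPM was most like each member over 40 libraries were sought among 7022 genes averaging 3 or more. For mag they were Jon99Ciii (r = 0.96), a gut protease of the Jonah family, CG18179 (r = 0.95) and LManV (r = 0.95), a lysosomal mannosidase. Jon99Ciii had medians of 248, 39.2, 538 and 305 CPM in wild-type young, wild-type old, ablated young and ablated old flies, the order of the mag medians but for wild-type young and ablated old flies, which change places. For FASN1 they were CG15096 (r = 0.86), AcCoAS (r = 0.83) and Alp9 (r = 0.82), and for AcCoAS they were Acsl (r = 0.83), FASN1 (r = 0.83) and MtnE (r = 0.82). For ACC they were Alp10 (r = 0.89), the glycolytic gene Tpi (r = 0.88) and Idh (r = 0.88). Alp10 had medians of 12.6, 6.01, 23.9 and 18.4 CPM in the same groups, the same order as Jon99Ciii. Without centring, mag itself had r = 0.67 with ACC, 0.51 with AcCoAS and 0.49 with FASN1, so these neighbours do not set mag apart. For SREBP they were the autophagy gene Atg2 (r = 0.90), CG3091 (r = 0.89) and the catalase gene Cat (r = 0.89), and for Desat1 they were sosie (r = 0.75), CG14439 (r = 0.74) and CG3164 (r = 0.73). These values are descriptions, since libraries share genotype, age, hour and depth.

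The time course itself was not shown to differ with genotype or age for any member. In 24 climber libraries the difference in slope passed for 0 of 6 genes with genotype, against 0.61% of all genes, and for 0 of 6 with age, against 0.00872%. The largest genotype difference in slope was that of ACC, at 0.17 ± 0.07 per unit of log2(hour + 1) (edgeR adjusted p = 0.161, unadjusted p = 0.0216).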

How the data were processed

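Whole-body RNA was made into Lexogen 3' mRNA libraries, per the labels, with 40 libraries of 1 condition each. The authors deposited whole-number counts per gene, with reads aligned with STAR 2.7.5a to dm6, per the submitters' processing notes. The counting tool and its strand setting are not given in the sources used here. Of 17609 genes, 17596 matched a symbol, 1824 had no count and 11449 passed edgeR's expression filter. Counts were tested as deposited with edgeR 4.0.16 in R 4.3.3, with TMM factors and the quasi-likelihood test with Benjamini-Hochberg adjustment over all genes tested. Terms were genotype and age, hour or control, and behaviour, with 28 residual degrees of freedom. Slopes on log2(hour + 1) were fitted in 24 climber libraries. CPM used the TMM factors, and log2 CPM a prior count of 2. No columns were identical, and the closest pair of libraries had r = 0.9948. The test was checked on simulated counts. The labels do not say that conditions came from separate cultures, so p-values measure spread between these libraries, which may be technical.

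The members and lists were chosen with earlier results of these data known. Text names the members, up to 3 genes per list and comparison with the smallest p among those past 0.05, and the 3 genes most correlated with each member, taken from genes averaging 3 or more in log2 CPM. Alternatives were RLE factors, DESeq2 1.42.0, limma-voom (limma 3.58.1), other filters, batch or library set as a covariate, a replicate block and libraries left out. Member correlations used scipy 1.17.1. Symbols and positions came from the Ensembl BDGP6.54 annotation, which shares dm6 coordinates. No sequences are shown.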

Additional observations from a re-analysis of the deposited data

Results flagged for a closer look

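The age effect of mag differed between genotypes by 1.63 ± 0.56 (edgeR adjusted p = 0.0229), by an interaction term. It was lower with age in 13 of 13 wild-type and 7 of 7 ablated pairs. Over the alternatives the term ran from -0.19 to 1.96 and passed in 15 of 20, and batch was not separable from genotype at the same age. The age effect of AcCoAS also differed, by 0.46 ± 0.18 (edgeR adjusted p = 0.0407). It was lower with age in 12 of 13 wild-type pairs and higher in 4 of 7 ablated pairs, and the term ran from 0.35 to 0.57 and passed in 6 of 20 alternatives.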

How the results depend on the processing

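Of the values recomputed for single members and pairs, 1492 kept direction and side of the threshold, 80 lost the call, 15 gained one and 3 reversed. The reversed values were the mag genotype by age term at -0.19 with batch as a covariate, and the correlations of SREBP with ACC (0.51) and of AcCoAS with mag (0.51) without centring, where 12 of 15 pairs passed in place of 6. With batch as a covariate, 1 member passed from 0 h to 8 h and 0 for any hour, for age in either genotype, for genotype at either age and for the interaction. With the library set as a covariate, 1 passed for genotype at each age and 0 for the interaction. Wild-type libraries alone gave 1 from 0 h to 8 h. Climbers with controls gave 1 for any hour and 1 for the interaction. Without the 2 ablated young libraries in doubt 1 passed for genotype in young flies, 3 for age in ablated flies and 3 for the interaction, FASN1 being the gain in both. RLE factors, DESeq2 and the filter of 10 counts in 20 libraries each gave 1 for age in ablated flies and 1 for the interaction, and no filter gave 1 for age in wild type and 1 for the interaction. Leaving out 1 hour gave 0 to 3 for any hour, 0 to 1 for 0 h against control, 1 to 2 for age in either genotype and 0 to 2 for the interaction, and leaving out a control gave 1 to 2 for age in wild type and for the interaction. Without ablated young 0 h and 1 h, an alternative chosen after seeing the data, 1 passed for 0 h against control, 1 for age in ablated flies and 0 for the interaction. The replicate block, which paired climbers and non-climbers of the same age and hour, called 0 members and gave FASN1 -0.39 (edgeR adjusted p = 0.65). The cause of these changes was not tested. With 1 library per condition, effects of single conditions had no replicate, and mag in wild-type old flies rested on as few as 19 counts.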
